A study of Mus musculus with 16 samples.

Results

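Glycolysis is the chain of enzymes that splits glucose into pyruvate in the cytosol, and several of its steps can be carried out by alternative enzymes, called isozymes, encoded by separate genes. When oxygen is scarce, the transcription factor subunits HIF-1α (gene Hif1a) and HIF-2α (gene Epas1) escape the prolyl hydroxylases that otherwise mark them for destruction, pair with ARNT and bind DNA elements that contain the letters ACGTG. Their known targets include many glycolytic genes, and the epithelium of the colon is known to live at low oxygen in health. The genes described here are 34 mouse symbols, 18 of glycolytic enzymes and their regulators and 16 of hypoxia signalling and its other targets. A symbol entered when the platform annotation gave it at least 1 probe set (a group of probes read as 1 value) that names no other gene. By that rule 32 of the 34 were measured, 16 in each class, among 19938 genes in all; Gpi1 and Eno1 were not analysed here. The rule that selects probe sets uses no measured value, but the symbols were proposed with earlier results of these data known.

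The study measured colonic epithelial cell RNA of C57BL/6 mice on Affymetrix arrays, in a breeding scheme built on Pigr, the receptor that carries secretory IgA (SIgA) across epithelia. Pigr+/- dams give their young SIgA in milk and Pigr-/- dams do not, which sets passive SIgA; Pigr+/- offspring can transport SIgA of their own and Pigr-/- offspring cannot, which sets active SIgA. The 4 combinations were passive and active SIgA (Pigr+/- offspring of Pigr+/- dams), passive only (Pigr-/- offspring of Pigr+/- dams), active only (Pigr+/- offspring of Pigr-/- dams) and neither (Pigr-/- offspring of Pigr-/- dams). In each combination 1 group stayed untreated and 1 received the polymer dextran sulfate sodium (DSS), which injures the colonic epithelium, at 2% in its water for 8 days; the offspring were 70 days old and matched for gender. That gives 8 groups of 2 arrays, and each array holds RNA pooled from 3 mice, so the spread between replicates is that between pools and hides the spread between animals. No group was homozygous for the intact Pigr gene. The design asks what DSS changed, what each source of SIgA changed, and whether the DSS effect depended on SIgA.

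All values are log2 intensities, on which 1 unit is a doubling, and a gene is called changed when limma's moderated test gave a Benjamini-Hochberg adjusted p under 0.05 over all 19938 genes. The Pigr probe set lay at 12.18 to 12.46 on the 8 arrays labelled Pigr+/- and at 11.34 to 11.70 on the 8 labelled Pigr-/-, so every array was on the side of its label. The 11 epithelial markers all lay above the median gene, and the log2 of their summed level was 16.05 to 16.16 on untreated and 16.04 to 16.16 on DSS arrays. Of these 11, Krt18, a keratin of simple epithelia, was called lower under DSS (-0.20, adjusted p = 0.0444), and none was called higher. Markers of some other cells rose with DSS, where 6.4% of all genes were called higher. Called higher were 11 of 17 neutrophil, 9 of 18 monocyte and macrophage and 3 of 9 fibroblast markers, and none of these was called lower. None of 7 T cell markers was called. Of 6 B cell and plasma cell markers 1 was called lower and none higher. The 2 untreated arrays of the combination with both sources of SIgA differed from the other 14. Their mean over 1275 receptor and keratin-associated genes was 5.26 and 5.41, against 4.45 to 4.87 elsewhere, and on the first principal component of all genes they lay at -33.5 and -35.2, near untreated active only replicate 1 at -32.2 and outside the range of -5.52 to 27.4 of the other 13 arrays. In bulk RNA of this kind, fewer cells that express a gene and less RNA per cell cannot be told apart.

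DSS did not move glycolysis as a block. Averaged over the 4 SIgA groups, 12 of the 32 genes changed, 7 higher and 5 lower, while 13.1% of all genes changed, 6.4% higher and 6.73% lower. Among the glycolytic genes Pfkfb3, Hk2 and Pgk1 rose while Eno3, Pfkfb4 and Pfkm fell, and the other 10 did not pass the test. Among the hypoxia genes Egln3, Ero1a, P4ha1 and Car9 rose, Epas1 and Vegfa fell, and the other 10 did not pass. The median log2 difference was -0.02 over the 16 glycolytic genes and 0.14 over the 16 hypoxia genes, of which 14 had a positive difference, beside a median of -0.004 over all genes, of which 48.6% were positive.

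**Figure D1:**
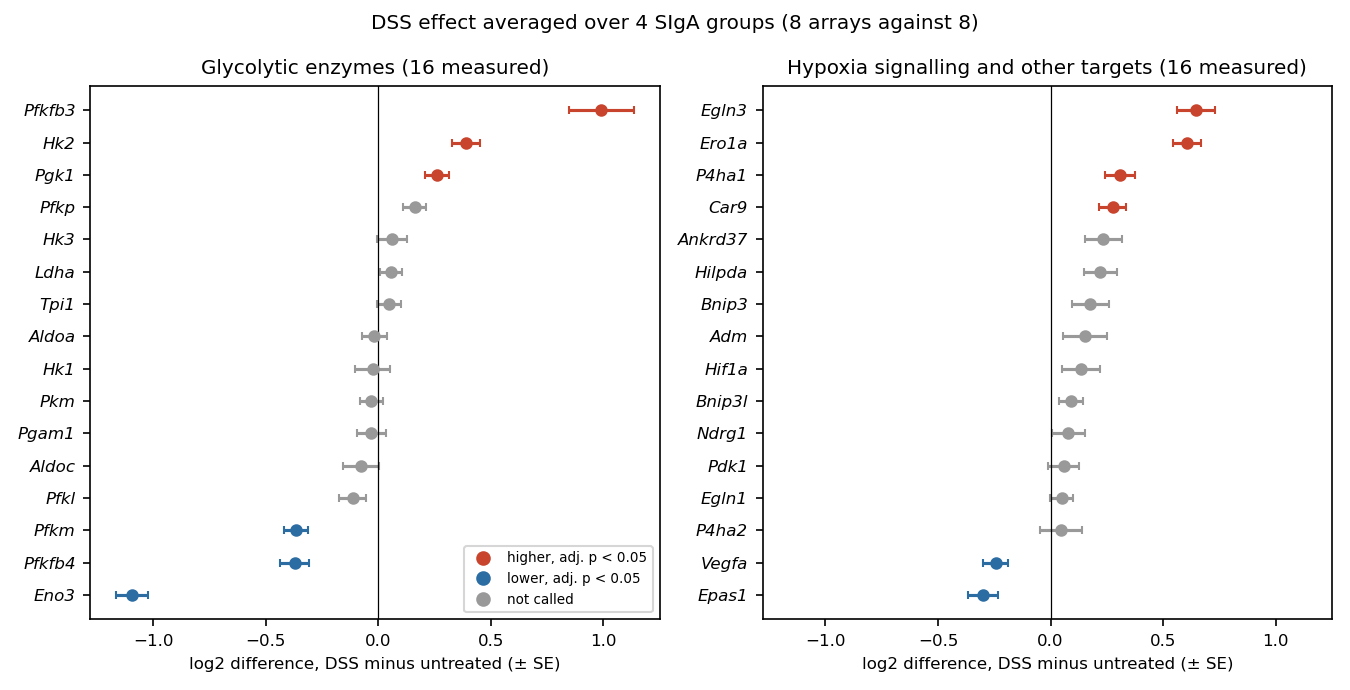
DSS effect on each of the 32 genes, averaged over the 4 SIgA groups: log2 difference, DSS minus untreated, with its standard error, coloured by the call at an adjusted p under 0.05 (limma, 8 arrays against 8). Eno3 at -1.09 and Pfkfb3 at 0.99 lie at the ends, and most of the lower glycolytic enzymes lie near 0.

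For 6 genes the 8 DSS arrays did not overlap the 8 untreated ones: Hk2, Pgk1, Egln3 and Ero1a lay wholly above, as did 1.58% of all genes, and Pfkm and Eno3 wholly below, as did 1.3%. Their upstream DNA is shown because they are the genes whose arrays part completely, so a reader can see whether letters of the hypoxia element lie just before the start. Each line gives the 250 bases before the transcription start in RefSeq's GRCm38.p6, in the gene's own direction, with ACGTG on either strand (read as ACGTG or CACGT) in capitals. The stretches are chr6:82774455-82774704 on the minus strand for Hk2, chr15:98092339-98092588 on the plus strand for Pfkm (the first of 4 starts), chrX:106186850-106187099 on the plus strand for Pgk1, chr11:70656926-70657175 on the plus strand for Eno3, chr12:54203875-54204124 on the minus strand for Egln3 and chr14:45318573-45318822 on the minus strand for Ero1a.
Hk2: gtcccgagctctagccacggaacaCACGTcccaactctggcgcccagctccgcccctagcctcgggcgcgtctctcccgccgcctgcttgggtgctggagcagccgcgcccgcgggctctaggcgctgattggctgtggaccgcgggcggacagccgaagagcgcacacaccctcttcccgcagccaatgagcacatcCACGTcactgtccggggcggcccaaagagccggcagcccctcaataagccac
Pfkm: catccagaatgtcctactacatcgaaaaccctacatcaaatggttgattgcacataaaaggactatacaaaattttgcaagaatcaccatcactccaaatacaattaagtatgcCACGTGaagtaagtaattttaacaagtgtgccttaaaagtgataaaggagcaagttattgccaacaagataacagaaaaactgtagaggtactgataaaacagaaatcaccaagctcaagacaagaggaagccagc
Pgk1: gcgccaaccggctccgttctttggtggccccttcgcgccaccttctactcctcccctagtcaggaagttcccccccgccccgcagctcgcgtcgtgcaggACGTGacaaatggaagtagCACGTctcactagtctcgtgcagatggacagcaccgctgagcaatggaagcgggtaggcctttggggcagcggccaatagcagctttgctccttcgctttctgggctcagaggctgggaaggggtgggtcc
Eno3: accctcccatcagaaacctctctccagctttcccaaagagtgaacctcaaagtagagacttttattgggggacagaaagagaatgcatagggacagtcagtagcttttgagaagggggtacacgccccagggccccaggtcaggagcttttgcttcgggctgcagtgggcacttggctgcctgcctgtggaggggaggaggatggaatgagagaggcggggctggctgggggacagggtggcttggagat
Egln3: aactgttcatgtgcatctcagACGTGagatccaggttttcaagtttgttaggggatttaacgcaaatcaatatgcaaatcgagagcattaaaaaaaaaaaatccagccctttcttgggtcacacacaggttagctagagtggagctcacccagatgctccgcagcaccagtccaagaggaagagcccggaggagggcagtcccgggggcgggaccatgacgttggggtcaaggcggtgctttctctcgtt
Ero1a: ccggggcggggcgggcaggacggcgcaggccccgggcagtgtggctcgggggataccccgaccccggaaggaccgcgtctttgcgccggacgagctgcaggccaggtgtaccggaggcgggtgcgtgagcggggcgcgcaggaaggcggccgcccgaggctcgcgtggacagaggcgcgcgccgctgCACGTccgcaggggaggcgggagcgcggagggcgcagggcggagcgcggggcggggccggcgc

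Hk2 held the letters 226 and 52 bases before its start, Pgk1 150 and 131, Egln3 229 and Ero1a 63. In Pfkm the palindrome CACGTG, 136 bases before the start, reads as both forms and so counts on both strands, and Eno3 had no match in its 250 bases. Over windows of 250 bases before to 50 after the start, 22 of the 31 genes found in the RefSeq table held ACGTG on either strand in at least 1 of their starts. The share over all 27025 genes of the table was 21.8%. The symbols were chosen as glycolytic genes and known hypoxia targets, so a higher share can follow from that choice alone. By call, the letters were found in 7 of 7 genes that rose, 2 of 4 that fell and 13 of 18 that were not called. That split was not tested. Among genes with 1 start only, 13 of 20 members and 19.4% of 22862 genes held them. Epas1, Bnip3l and Ndrg1 were not in the table. A match of 5 letters is a description of the sequence and not a measured binding site, and the other common form of the element, GCGTG, was not counted.

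Entry into glycolysis begins with hexokinases, which phosphorylate glucose and so trap it in the cell. Hk2, the inducible hexokinase, lay at 10.70 to 11.03 (median 10.82) on untreated arrays and at 11.11 to 11.41 (median 11.20) on DSS arrays. It rose 1.31-fold, a log2 difference of 0.39 ± 0.06 (SE, 8 arrays against 8; limma, adjusted p = 0.00084). Hk1, the housekeeping hexokinase, had a log2 difference of -0.03 ± 0.08 and Hk3, a hexokinase known from blood cells, one of 0.06 ± 0.07, neither called. The Hk1 probe set used here is tied to its gene through a single record that 16 other probe sets, which also name the ribosomal protein gene Rpl17, list too; the other Hk1 probe set gave -0.12 ± 0.05 and was not called either (adjusted p = 0.129, limma on 21789 probe sets).

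The bifunctional enzymes PFKFB3 and PFKFB4 make and break fructose 2,6-bisphosphate, the strongest activator of phosphofructokinase, and the 2 genes moved in opposite directions. Pfkfb3, whose product favours synthesis, lay at 7.11 to 8.29 (median 7.52) untreated and at 8.16 to 9.06 (median 8.48) after DSS. The arms overlap only through untreated active only replicate 2 at 8.29 and DSS passive only replicate 2 at 8.16, and within each of the 4 SIgA groups both DSS arrays lay above both untreated ones. The rise was 1.99-fold, 0.99 ± 0.14 on the log2 scale (adjusted p = 0.000512). Pfkfb4 lay at 8.34 to 8.79 (median 8.53) untreated and at 8.04 to 8.40 (median 8.21) after DSS. Within each SIgA group both DSS arrays were below both untreated ones, and Pfkfb4 fell 1.29-fold, by 0.37 ± 0.06 on the log2 scale (adjusted p = 0.00158).

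Phosphofructokinase, the committing step itself, is built from subunits encoded by Pfkl (liver), Pfkm (muscle) and Pfkp (platelet). Pfkm lay at 7.93 to 8.15 (median 7.98) untreated and at 7.51 to 7.73 (median 7.66) after DSS, without overlap, and fell 1.29-fold (-0.37 ± 0.05, adjusted p = 0.000583). Its difference was nearly the same in all 4 SIgA groups, from -0.36 to -0.38. Pfkl gave -0.11 ± 0.06 (adjusted p = 0.256). Pfkp gave 0.16 ± 0.05 and missed the threshold (adjusted p = 0.0601); it passed with an intensity trend in the variance (0.0257), without the dimmest 30% of genes (0.0371) and without untreated active only replicate 2 (0.0231).

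Further down the pathway, where the split sugar is turned into pyruvate and lactate, 2 of 8 measured genes changed. Pgk1, phosphoglycerate kinase, the first ATP-yielding step, lay at 11.17 to 11.39 (median 11.29) untreated and at 11.42 to 11.64 (median 11.55) after DSS. It rose 1.20-fold (0.26 ± 0.05, adjusted p = 0.00643), and all 3 of its probe sets, of which 2 hold identical values, were called with differences of 0.25 to 0.26. Eno3, the muscle form of enolase, changed most of the 32 genes. Its untreated arrays were tight, 10.76 to 10.95 (median 10.85), and its DSS arrays were spread from 9.21 to 10.23 (median 9.82). The DSS values were 9.94 and 9.60 with passive and active SIgA, 9.21 and 9.23 with passive only, 10.07 and 10.23 with active only, and 10.07 and 9.70 with neither. Every DSS array lay below every untreated one, lowest with passive SIgA only, and Eno3 fell 2.13-fold (-1.09 ± 0.07, adjusted p = 6.89e-07).

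The other 6 genes of these later steps did not pass. Aldoa and Aldoc, aldolases that split fructose 1,6-bisphosphate, gave -0.02 ± 0.06 and -0.08 ± 0.08. Tpi1, triose phosphate isomerase, gave 0.05 ± 0.05 and Pgam1, phosphoglycerate mutase, -0.03 ± 0.06. Pkm, pyruvate kinase, gave -0.03 ± 0.05 and Ldha, the lactate dehydrogenase subunit that is a classic HIF-1 target, 0.05 ± 0.05. The 95% interval of the log2 difference ran from -0.14 to 0.08 for Pkm and from -0.05 to 0.16 for Ldha. The estimate of 0.26 for Pgk1 lies outside the Ldha interval, but the interval of Pgk1, 0.14 to 0.38, overlaps it. The difference between Ldha and Pgk1 was not tested.

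Among the genes of oxygen sensing, Egln3, a prolyl hydroxylase that is itself induced by HIF, lay at 8.64 to 9.17 (median 9.01) untreated and at 9.39 to 9.95 (median 9.51) after DSS. It rose 1.56-fold (0.65 ± 0.08, adjusted p = 0.000206), while Egln1, the main hydroxylase of HIF-1α in most cells, gave 0.05 ± 0.05. Epas1, encoding HIF-2α, lay at 9.95 to 10.50 (median 10.14) untreated and at 9.66 to 10.07 (median 9.88) after DSS. The arms overlap, but within each SIgA group both DSS arrays were below both untreated ones, and Epas1 fell 1.23-fold (-0.30 ± 0.07, adjusted p = 0.00927). Hif1a, whose product is controlled mainly as protein, gave 0.14 ± 0.08 (adjusted p = 0.35) and passed only without untreated active only replicate 2 (0.21, adjusted p = 0.0451).

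Among the targets, Ero1a, an oxidase that forms disulfide bonds in the endoplasmic reticulum, lay at 9.70 to 10.16 (median 9.98) untreated and at 10.30 to 10.78 (median 10.59) after DSS. It rose 1.52-fold (0.61 ± 0.06, adjusted p = 3.63e-05). Car9, a membrane carbonic anhydrase that helps cells export acid, lay at 8.95 to 9.42 (median 9.18) untreated and at 9.26 to 9.62 (median 9.44) after DSS, with overlap, and rose 1.21-fold (0.28 ± 0.06, adjusted p = 0.00973). P4ha1, a collagen prolyl hydroxylase subunit, lay at 7.49 to 8.11 (median 7.86) untreated and at 7.98 to 8.52 (median 8.12) after DSS, and rose 1.24-fold (0.31 ± 0.07, adjusted p = 0.00808). That call rests on the combination with both sources of SIgA, whose untreated arrays stood apart. Without those arrays the contrast averages the other SIgA groups only, so the DSS arrays of that combination drop out of it too. There P4ha1 gave 0.15 (limma, adjusted p = 0.287), 6.07% of all genes were called and 10 of the 12 genes remained.

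Vegfa, the angiogenic growth factor often used as a sign of HIF activity, went the other way. It lay at 9.86 to 10.49 (median 10.16) untreated and at 9.80 to 10.12 (median 9.91) after DSS, and fell 1.18-fold (-0.24 ± 0.06, adjusted p = 0.0117). The difference of Vegfa was -0.23 with passive and active SIgA, 0.09 with passive only, -0.22 with active only and -0.61 with neither. Averaged over the SIgA groups other than passive and active, its value was -0.25 and it missed the threshold (limma, adjusted p = 0.052). The remaining targets did not pass: Hilpda, a lipid droplet protein, gave 0.22 ± 0.07 (adjusted p = 0.0684), Ankrd37, an ankyrin repeat protein, 0.23 ± 0.08 (adjusted p = 0.0871), and Bnip3, which marks mitochondria for removal, 0.18 ± 0.08 (adjusted p = 0.185). Bnip3 passed without DSS passive and active replicate 1 (adjusted p = 0.0192), Hilpda without that array (0.0343) or without untreated active only replicate 2 (0.0307), and Ankrd37 without untreated passive and active replicate 1 (0.0235) or DSS passive and active replicate 2 (0.0451). Adm (adrenomedullin, a vasodilator peptide), Bnip3l, Ndrg1, P4ha2 and Pdk1 (the kinase that closes pyruvate's way into mitochondria) gave differences of 0.05 to 0.15.

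**Figure D2:**
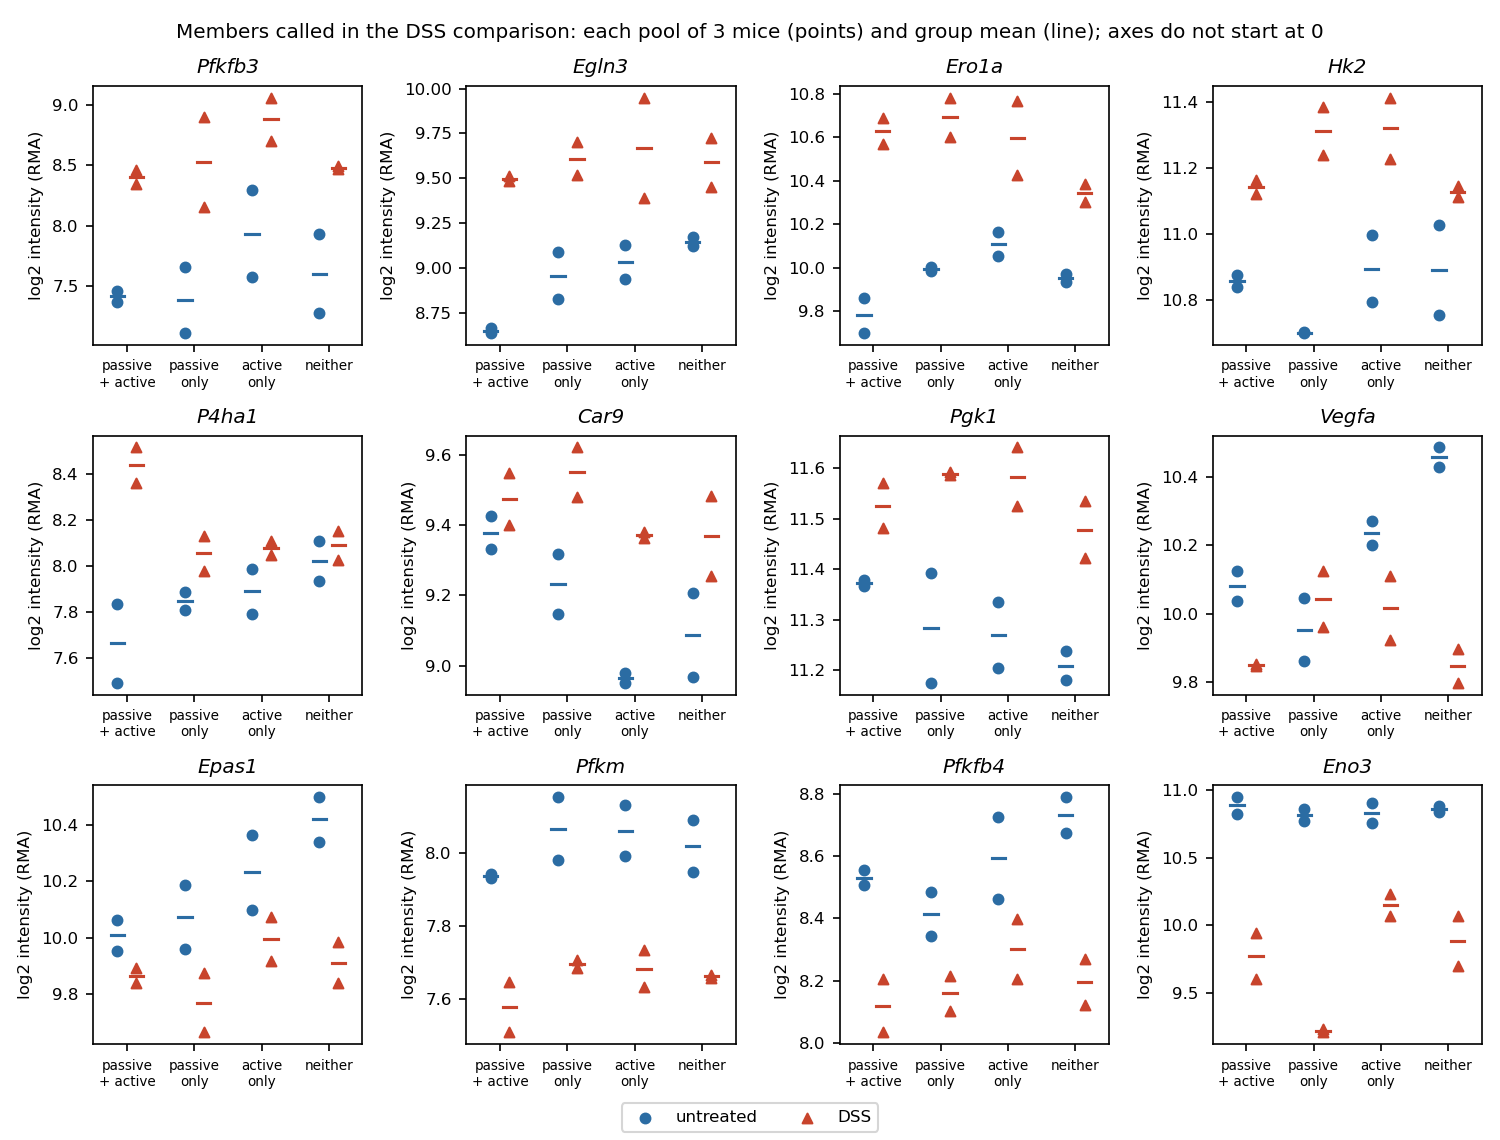
Log2 intensity of each of the 12 genes called under DSS on each of the 16 arrays, by SIgA group, untreated and DSS side by side (axes do not start at 0). Eno3 falls from 10.76 to 10.95 untreated to 9.21 to 10.23 after DSS, and P4ha1 parts most with passive and active SIgA.

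Markers of some other cells moved with these genes and are given beside them. The log2 summed level of neutrophil markers was 12.05 to 12.62 untreated and 12.60 to 13.00 after DSS, of monocyte and macrophage markers 10.24 to 10.45 and 10.74 to 11.10, and of fibroblast markers 10.39 to 10.97 and 11.04 to 11.45. Of the neutrophil markers 15 of 17 lay below the median gene, among them S100a8, S100a9 and Mpo, and of the monocyte and macrophage markers 16 of 18. The brightest neutrophil marker had a mean of 12.23, so the neutrophil sum mostly reads that marker and hardly the dim ones. None of 10 endothelial markers was called and all 10 lay below the median gene. The part of these cells in the rise of Pfkfb3, Hk2, P4ha1 and the other genes was not tested.

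The DSS differences of related genes can also be set side by side within the same arrays, for 10 pairs. The pairs were chosen after the values were seen, so they are given as a description, without p-values. Hk1 was left out for its annotation. The DSS difference of Pfkfb3 exceeded that of Pfkfb4 by 1.36 ± 0.08 log2 units (SD over the 4 SIgA groups). That of Pfkp exceeded that of Pfkm by 0.53 ± 0.15 and that of Pfkl by 0.28 ± 0.09, and that of Pfkl exceeded that of Pfkm by 0.25 ± 0.09. The excess was 0.60 ± 0.09 for Egln3 over Egln1 and 0.43 ± 0.14 for Hif1a over Epas1. For Hk2 over Hk3 it was 0.33 ± 0.21, but Hk3 lay at 5.89 to 6.24 untreated and at 5.88 to 6.30 after DSS, below the median gene, so this value is largely the rise of Hk2. It was 0.26 ± 0.16 for P4ha1 over P4ha2. P4ha2 too lay below the median gene, at 5.95 to 6.71 untreated and at 6.05 to 6.44 after DSS. The excess was smaller than the spread between SIgA groups for Aldoa over Aldoc (0.06 ± 0.13) and Bnip3 over Bnip3l (0.09 ± 0.29).

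Taken SIgA group by SIgA group, with 2 arrays against 2, fewer genes passed. With passive and active SIgA, 6 of 32 did, beside 10.1% of all genes: Pfkfb3, Eno3, Egln3, Ero1a, Bnip3 and P4ha1. That comparison uses the untreated arrays that stood apart, and Bnip3 there rose from 7.43 and 7.52 to 7.77 and 8.35 (0.59 ± 0.16, adjusted p = 0.037). P4ha1 rose from 7.49 and 7.83 to 8.36 and 8.52 (0.77 ± 0.13, adjusted p = 0.00245). The calls of Eno3, Egln3, Ero1a and P4ha1 held in all 16 fits that left out 1 array, that of Pfkfb3 in 8 (adjusted p up to 0.193) and that of Bnip3 in 7 (up to 0.316, without DSS replicate 2, where its difference was 0.29). With passive SIgA only, 3 passed beside 1.98% of all genes: Eno3 (-1.60 ± 0.14, adjusted p = 8.81e-05), Hk2, which rose from 10.70 on both arrays to 11.38 and 11.24 (0.61 ± 0.12, adjusted p = 0.0187), and Ero1a (0.70 ± 0.13, adjusted p = 0.0109). Hk2 lost its call without any 1 of the 4 arrays of this comparison (adjusted p up to 0.215), and Ero1a without either untreated array or DSS replicate 1 (up to 0.144).

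With active SIgA only, Eno3 alone passed (-0.68 ± 0.14, adjusted p = 0.0433), beside 0.998% of all genes, and its call was lost in 12 of the 16 fits that left out 1 array (adjusted p up to 0.34). With neither, Eno3 (-0.98 ± 0.14, adjusted p = 0.00452) and Vegfa (-0.61 ± 0.11, adjusted p = 0.0177) passed, beside 1.12% of all genes. Vegfa there fell from 10.49 and 10.43 to 9.80 and 9.90 and lost its call without any 1 of these 4 arrays (adjusted p up to 0.177), while Eno3 lost it without either untreated array or DSS replicate 2 (up to 0.0734). The hypoxia genes had a positive DSS difference in 13 of 16 cases in each of the 3 groups with some SIgA and in 7 of 16 with neither. Over all genes the positive share also differed by group: 56.1% with passive and active SIgA, 57.5% with passive only, 38.3% with active only and 52.9% with neither. With neither, Adm gave -0.40, Bnip3 -0.21 and Hilpda -0.12 against 0.11 to 0.59 in the other 3 groups. Their untreated means were highest with neither: Adm 10.39 beside 9.85 to 10.22, Bnip3 8.09 beside 7.47 to 7.84, Hilpda 7.02 beside 6.64 to 6.89. Their means after DSS were lowest there: Adm 9.99 beside 10.20 to 10.55, Bnip3 7.87 beside 7.95 to 8.06, Hilpda 6.90 beside 6.99 to 7.14. These differences therefore hold a higher untreated level as well as a lower DSS level. Whether the list differs among groups was not tested; the genes were tested singly.

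**Figure D3:**
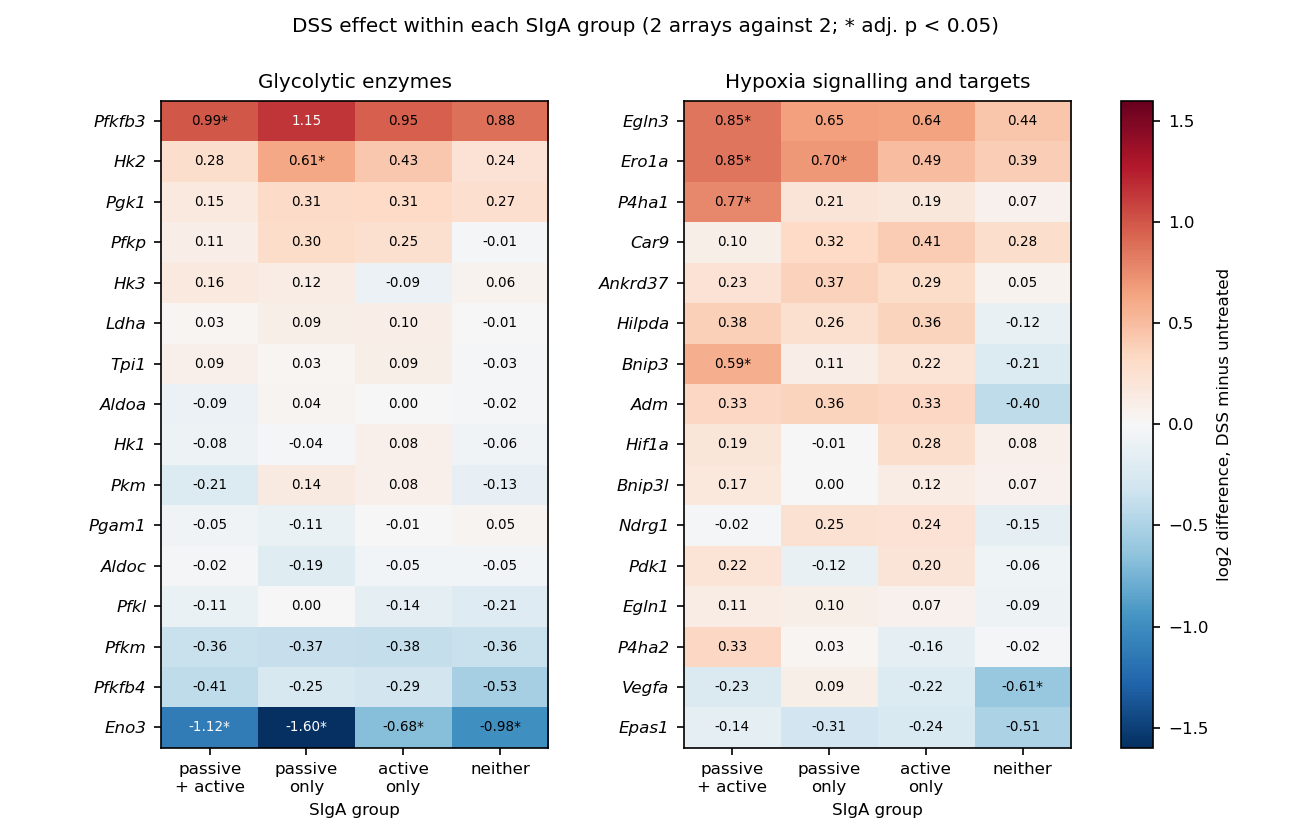
Log2 difference, DSS minus untreated, of each gene within each SIgA group (2 arrays against 2), red higher and blue lower, with an asterisk at an adjusted p under 0.05 (limma). Eno3 carries an asterisk in all 4 groups, and the column with neither SIgA holds the lowest values of Adm, Bnip3 and Vegfa.

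None of these contrasts between groups passed the test of the difference itself. An F test on 3 degrees of freedom over the 4 DSS effects, added after the values were seen, called none of the 32 genes in limma, beside 1.38% of all genes, and 5 had an unadjusted p under 0.05 (15.6%), beside 10.6% of all genes. The lowest was Eno3 (adjusted p = 0.149), followed by Vegfa (adjusted p = 0.187) and P4ha1 (adjusted p = 0.25). The interaction of passive SIgA with DSS called none of the 32, beside 0.115% of all genes, and the interaction of active SIgA with DSS likewise none, beside 0.843%. In each, 4 of the 32 (12.5%) had an unadjusted p under 0.05, beside 8.14% and 12% of all genes. The fall of Eno3 was smaller by 0.53 ± 0.14 log2 units without passive SIgA than with it (adjusted p = 0.256) and larger by 0.39 ± 0.14 without active SIgA (-0.39, adjusted p = 0.292).

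The sources of SIgA were also compared directly. In untreated mice, Vegfa alone among the 32 genes was higher in the absence of passive SIgA, beside 2.58% of all genes called. Vegfa lay at 10.24 ± 0.05 and 10.46 ± 0.04 (SD, n = 2) in the groups without passive SIgA, active only and neither, and at 10.08 ± 0.06 and 9.95 ± 0.13 in those with it. The difference was 0.33 ± 0.08 (adjusted p = 0.0478), and the call was lost in 14 of 16 fits that left out 1 array, with values of 0.28 to 0.38 and an adjusted p of up to 0.17. At an unadjusted p under 0.05 stood 7 of the 32 genes with Vegfa included (21.9%), near the 19.9% of all genes. The 6 that were not called were Egln3, Epas1, Bnip3 and Adm, with differences of 0.28 to 0.32, and Pgam1 and Car9, with -0.29 and -0.28.

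After DSS, absence of passive SIgA called none of the 32 genes in limma, beside 0% of all genes, and 1 had an unadjusted p under 0.05 (3.12%), beside 3.95% of all genes. That gene was Eno3, with a difference of 0.52 ± 0.10 (adjusted p = 0.133). Absence of active SIgA called none in untreated mice, beside 7.49% of all genes, and none after DSS, beside 0.00502%. At an unadjusted p under 0.05 there were 3 of 32 untreated (9.38%), beside 28% of all genes, and 2 after DSS (6.25%), beside 1.66% of all genes. The 3 untreated genes were Bnip3, Pdk1 and Hilpda, with differences of 0.34, 0.31 and 0.29 (adjusted p = 0.0884, 0.0692 and 0.0986), and the 2 after DSS were Eno3 at -0.41 and Adm at -0.41 (adjusted p = 0.9998 for both). The untreated comparisons use the arrays that stood apart, and the DSS comparisons do not.

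The rest of glucose metabolism and of the hypoxia response was read from 6 further lists under DSS, against the same 13.1% of all genes called. Of 11 other glycolytic isozymes, 1 rose and 1 fell: Bpgm, which makes 2,3-bisphosphoglycerate, rose by 0.56 ± 0.06 (adjusted p = 4.51e-05), and Ldhb, the other lactate dehydrogenase subunit, fell (-0.29 ± 0.07, adjusted p = 0.0112). Of 13 glucose and lactate transporters, 1 rose and 3 fell. Slc16a3, the lactate exporter MCT4 and a known HIF-1 target, rose by 0.53 ± 0.06 (adjusted p = 6.42e-05). Slc16a7, the monocarboxylate carrier MCT2, fell (-0.57 ± 0.08, adjusted p = 0.000372), as did Slc5a1, the sodium-glucose carrier SGLT1 (-0.23 ± 0.07), and Slc16a1, the carrier MCT1 (-0.19 ± 0.05). The last 2 lost the call in 9 and 10 of 16 fits that left out 1 array.

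Of 12 genes that govern the entry of pyruvate into mitochondria, none rose and 4 fell. They act on both sides of the switch: Pdk2 (-0.62 ± 0.07) and Pdk4 (-0.33 ± 0.08) encode kinases that turn pyruvate dehydrogenase off, and Pdp2 (-0.53 ± 0.07) and Pdp1 (-0.43 ± 0.09) encode phosphatases that turn it on. The fall of Pdk4 was not shared by all SIgA groups: its difference was 0.20 with passive only, -0.49 with active only and -0.78 with neither. Of 13 genes of gluconeogenesis and the pentose phosphate path, 4 rose and 3 fell. Pck1, the cytosolic enzyme that commits carbon to glucose synthesis, fell most (-0.87 ± 0.07, adjusted p = 3.93e-06), and pyruvate carboxylase, Pcx, fell too (-0.32 ± 0.05). Pgd, of the oxidative pentose phosphate path, rose by 0.28 ± 0.06 and Fbp2, the muscle fructose bisphosphatase, by 0.23 ± 0.05.

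Of 13 other genes of the HIF machinery none was called in limma, the lowest adjusted p being 0.0797. An unadjusted p under 0.05 was found for 2 of these 13, beside 26.5% of all genes. Of 35 other hypoxia targets, 9 rose and 4 fell, with a median log2 difference of -0.01. Ak4, a mitochondrial adenylate kinase, rose by 0.94 ± 0.12 (1.91-fold, adjusted p = 0.000192), and Stc2, a secreted glycoprotein, by 0.53 ± 0.06 (adjusted p = 3.95e-05). Car12, a carbonic anhydrase of the cell surface like Car9, rose by 0.44 ± 0.06 and Insig2, a regulator of sterol synthesis, by 0.34 ± 0.05.

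**Figure D4:**
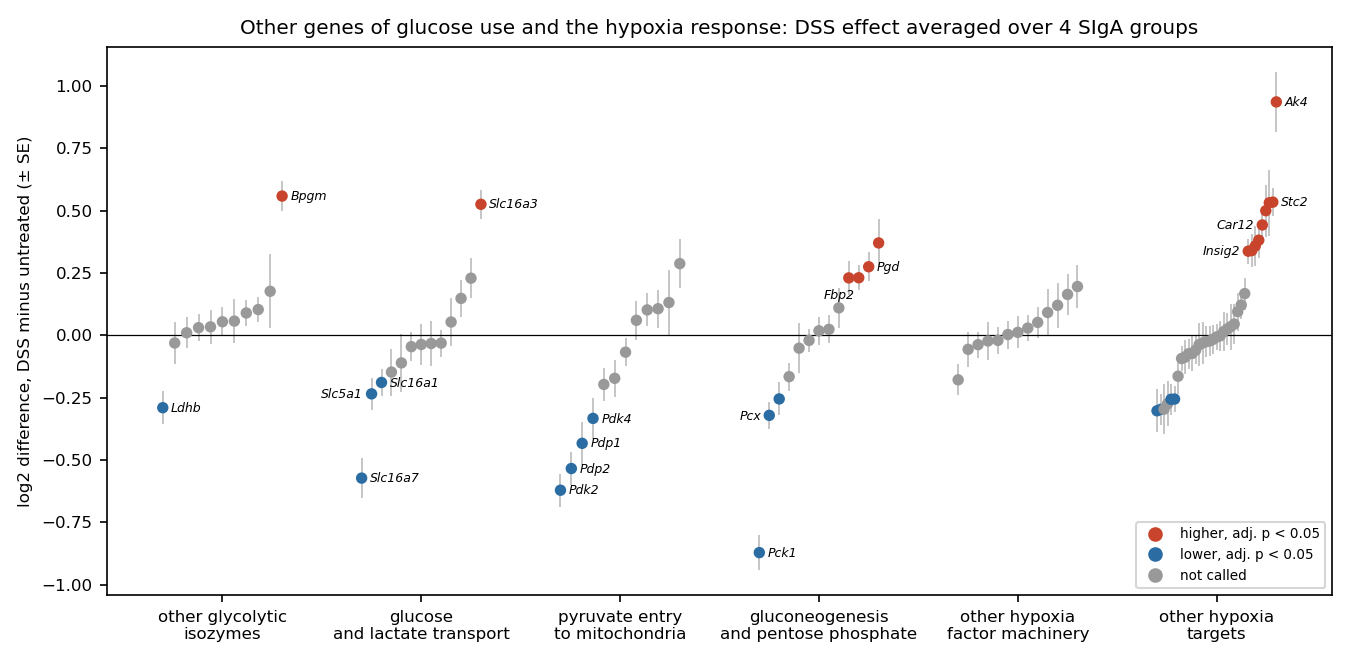
DSS effect, averaged over the 4 SIgA groups, of the genes of 6 further lists: log2 difference with its standard error, coloured by the call at an adjusted p under 0.05 (limma), with the named genes labelled. Pyruvate entry holds 4 genes that fell and none that rose, and Pck1 at -0.87 and Ak4 at 0.94 mark the extremes.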

How the data were processed

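The deposited table holds log2 intensities of 35557 probe sets on 16 arrays, which the authors summarised with RMA (a method of background correction, quantile normalization and median polish), per the submitters' processing notes; its version was not given in the sources used here. RMA compresses differences of dim or saturated probe sets, and arrays have no read depth: their number limits the precision. Of the probe sets 21789 name 1 gene, 1621 several and 12147 none. For each gene the brightest 1-gene probe set was used.

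Group means of the 8 groups were fitted with limma 3.58.1 in R 4.3.3 (8 residual degrees of freedom, Benjamini-Hochberg over 19938 genes) after the code was tested on simulated data. Pools share no stated pairing. Alternatives were another variance prior, array weights, other normalizations, a filter on dim genes, averaged probe sets, a replicate block and arrays left out; the F test, single probe sets, the differences within pairs of genes and 1 more array left out were added after the data were seen. The genes and lists were chosen with earlier results of these data known. All 32 genes may be named, with up to 4 genes of smallest p in each other list and Pigr; cell markers named were chosen after their values were seen.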

Additional observations from a re-analysis of the deposited data

How the results depend on the processing

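Under DSS averaged over SIgA groups, the 12 calls all remained under an intensity trend (13 called, with Pfkp), array weights (12), median centring (12), quantile normalization (12), averaged probe sets (12), without the dimmest 30% of genes (13, with Pfkp), with the replicate block (12) and in all 16 fits that left out 1 array (12 to 15 called). Without the 2 untreated arrays with both sources of SIgA, where the contrast averaged the other SIgA groups only, 10 of them remained. With untreated active only replicate 1 left out as well, Vegfa gave -0.24 and P4ha1 0.12. No direction of a called gene reversed. The counts within SIgA groups were less stable. With passive only, 3 became 5 under the trend, under array weights and without the dimmest 30%, and 1 to 4 with 1 array left out. With active only, 1 became 2 under the trend and quantile normalization and 0 under array weights, centring and without the group that stood apart, and 0 to 1 with 1 array left out. With neither, 2 became 4 under the trend and array weights and 0 to 3 with 1 array left out; with passive and active SIgA the range was 4 to 8. Absence of passive SIgA in untreated mice gave 0 in place of 1 under array weights, without the dimmest 30% and without that group, and 0 to 1 with 1 array left out; after DSS it gave 1 in place of 0 under the trend. Absence of active SIgA in untreated mice gave 0 to 2 and the interaction of active SIgA with DSS 0 to 1 with 1 array left out. The cause was not tested. Same-numbered arrays did not deviate together in all groups: over 28 pairs of groups the correlation of replicate differences ran from -0.301 to 0.666 (median 0.0758). It was over 0.1 in 14 pairs and below -0.1 in 9. The replicate numbers were therefore taken as names, and the replicate block changed no count by over 1.5 times. With 2 pools a group, the standard error within a SIgA group had a median of 0.15 log2 units over all genes, against 0.0752 averaged over groups.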
